A study of Homo sapiens with 4 samples.

Results

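LITAF and 10 other genes for proteins of endosomes and lysosomes were described in HAP1 cells, a widely used human line with a nearly haploid genome that grows attached although it derives from a leukaemia line. The members were selected on their symbols, and on the known difference of LITAF between the genotypes: LITAF, NEU1 and every gene on the panel named LAMP followed by a digit or CTS followed by a single letter, 11 of the 785 genes measured. They comprise LITAF, the sialidase NEU1, 3 LAMP genes and 6 cathepsins. RNA was measured by NanoString, which counts barcoded probes hybridised to individual transcripts with no amplification step. The study used 2 wild-type lines, numbered 1 and 7, and 2 lines in which MATR3 was knocked out, numbered 1 and 5; all 4 were bought from the same supplier and grown in the same medium without treatment. MATR3 encodes matrin 3, a nuclear protein that binds RNA and DNA. It was not among the genes measured, so its own level cannot check the labels. Each knockout line is 1 clone, and the labels tie the 2 wild-type numbers to separate supplier batches.

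The lysosome is the acidic compartment in which proteins, lipids and sugar chains are broken down by hydrolases such as cathepsins and sialidases. Its membrane is lined by heavily glycosylated LAMP proteins, and cargo reaches it through endosomes. LITAF is a small membrane protein of late endosomes and lysosomes that binds ubiquitin ligases of the NEDD4 family and the ESCRT sorting machinery; mutations in it cause a form of Charcot-Marie-Tooth neuropathy. Many lysosomal genes share promoter elements built on the E-box, bound by TFEB and related factors.

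Values are normalised counts, which are probe counts that the authors scaled by 1 factor per sample. Total gene counts ranged from 448610 to 571767 per sample. A background limit was set in each sample from the 8 negative control probes, at 2 SD above their mean, and lay between 19.5 and 25.7 normalised counts. Of the 14 leukocyte markers on the panel, only CD14 was above the limit in all 4 samples, at 25.6 to 37.7. CD4 and NKG7 were the only others above it in any. The summed level of the 14 was 183 and 222 in the wild type against 188 and 148 in the knockout. These sums include background, and single negative control probes averaged 7.93 to 8.87 after scaling, so no leukocyte content is read from them. The PTPRC probe, for the pan-leukocyte marker CD45, was below the limit in every sample, as were the probes CD45R0 and CD45RB. The probe CD45RA was above it in all 4, at 46.95 and 43.6 in the wild type and 50.1 and 38.5 in the knockout. The listed marker FCGR3A, named FCGR3A/B on the panel, was not counted among the 14. It was at 38.6 and 40.2 in the wild type and 49.0 and 14.6 in the knockout, below the limit only in knockout line 5. In bulk RNA, fewer cells of a kind and less RNA per cell cannot be told apart.

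The promoter windows of the genes that carry the account are shown because they split the members by a sequence feature that the choice of genes did not use. RefSeq's table (GRCh38.p14) held 9 windows for 7 of the 11 members; LAMP2, LAMP3, CTSS and CTSW had none. Each window is the 250 bases before a transcription start, 5′ to 3′ on the gene's strand, and capitals mark the E-box CACGTG, which reads the same on both strands. The windows lie at chr16:11587467-11587716 (LITAF, upstream start, minus strand), chr16:11586951-11587200 (LITAF, downstream start, minus strand), chr6:31862822-31863071 (NEU1, minus strand), chr20:45891085-45891334 (CTSA, plus strand) and chr13:113296989-113297238 (LAMP1, plus strand). Another LITAF window overlaps the downstream one.
LITAF upstream start: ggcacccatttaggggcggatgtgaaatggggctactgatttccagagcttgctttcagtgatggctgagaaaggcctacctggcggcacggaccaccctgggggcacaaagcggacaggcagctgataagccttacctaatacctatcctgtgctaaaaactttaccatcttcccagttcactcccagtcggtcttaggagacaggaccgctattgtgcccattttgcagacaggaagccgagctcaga
LITAF downstream start: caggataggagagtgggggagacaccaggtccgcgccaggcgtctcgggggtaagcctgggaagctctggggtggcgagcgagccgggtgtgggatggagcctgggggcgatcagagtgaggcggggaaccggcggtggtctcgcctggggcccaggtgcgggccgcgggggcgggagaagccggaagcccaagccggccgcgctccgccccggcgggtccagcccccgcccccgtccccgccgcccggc
NEU1: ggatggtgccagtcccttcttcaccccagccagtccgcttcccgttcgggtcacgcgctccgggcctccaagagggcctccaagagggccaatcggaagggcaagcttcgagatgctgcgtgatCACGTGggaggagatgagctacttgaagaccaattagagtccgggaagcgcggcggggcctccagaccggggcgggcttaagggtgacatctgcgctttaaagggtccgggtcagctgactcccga
CTSA: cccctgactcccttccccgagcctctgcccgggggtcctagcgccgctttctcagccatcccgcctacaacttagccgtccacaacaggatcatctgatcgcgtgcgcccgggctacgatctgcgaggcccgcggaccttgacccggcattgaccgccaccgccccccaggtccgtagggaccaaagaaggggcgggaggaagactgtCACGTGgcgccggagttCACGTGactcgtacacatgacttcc
LAMP1: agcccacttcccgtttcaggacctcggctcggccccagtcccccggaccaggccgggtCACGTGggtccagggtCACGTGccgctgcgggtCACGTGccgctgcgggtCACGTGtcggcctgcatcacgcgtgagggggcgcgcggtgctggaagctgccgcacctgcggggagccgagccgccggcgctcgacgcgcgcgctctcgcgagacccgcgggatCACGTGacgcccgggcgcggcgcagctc

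The LAMP1 window held 5 E-boxes, whose first bases lie 192, 176, 159, 142 and 28 bases before the start. The first 4 stand in a row of near-repeats. CTSA held 2, at 42 and 25 bases, and NEU1 held 1, at 126 bases. None of the 3 LITAF windows, nor those of CTSL, CTSZ and CTSG, held CACGTG. Of the 35116 windows in the table, 6.34% held it, as did 5.88% of the 867 windows of panel genes. The longer palindrome with GT before and AC after CACGTG is the consensus core of the lysosomal CLEAR element. It was in 0.308% of all windows, in 0 of the 867 windows of panel genes and in 0 of the 9 windows of the members. At that share, 9 windows cannot show a lack of it, and sites that depart from the exact letters were not counted. The shorter form with T before and A after CACGTG, searched after the windows had been read and overlapping the E-box, was in CTSA and LAMP1 and in 0.854% of all windows. A match is a stretch of letters and does not show binding.

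LITAF had the largest difference of the 11 members. It was at 231 and 234 normalised counts in the wild-type lines (1 and 7) and at 615 and 633 in knockout lines 1 and 5. Both knockout lines were far above both wild-type lines, and lines of the same genotype lay close together. These values rest on 221 and 273 counted molecules for the wild-type lines and 553 and 608 for the knockout lines. The exact Poisson 95% intervals, which cover counting error only, were 201 to 263 and 207 to 263 for the wild type and 565 to 669 and 583 to 685 for the knockout. In the order of levels, wild-type lines 1 and 7 are neighbours that do not differ beyond counting error, and so are knockout lines 1 and 5; the step lies between wild-type line 7 and knockout line 1.

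The wild-type mean of LITAF was 232 ± 2.14 and its knockout mean 624 ± 12.3 (SD, n = 2), a ratio of 2.69. Taking any knockout line over any wild-type line gave ratios from 2.63 to 2.74. The log2 difference, knockout minus wild type on log2(value + 1), was 1.42 ± 0.105 (SE of a limma fit over all 514 tested genes), the fifth largest increase. LITAF was chosen for this difference, so it is a description and no p is given for it. Among the 9 members that passed the filter of a mean of 20 or more, LITAF was the only 1 past a Benjamini-Hochberg adjusted p of 0.05 in limma, and none was lower. Over all 514 tested genes 8.17% passed, 6.23% higher and 1.95% lower, and 7.98% passed with edgeR on recovered counts. Nothing is read from this count, since the contrast was known when the genes were chosen.

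**Figure D1:**
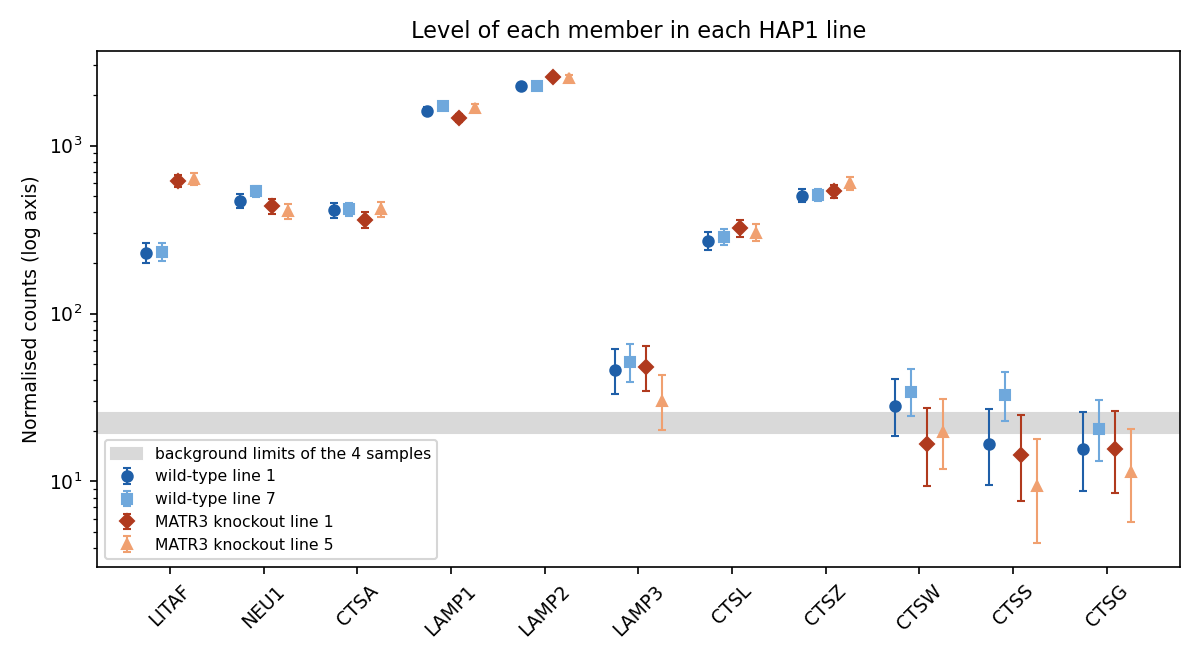
Normalised counts (log axis) of the 11 members in each of the 4 HAP1 lines, with exact Poisson 95% intervals as bars and the range of the 4 background limits, 19.5 to 25.7, as a grey band. LITAF is the only member whose knockout values (615 and 633) stand far from its wild-type values (231 and 234); CTSW, CTSS and CTSG lie in or near the band.

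The LITAF difference was also present in a ratio that is free of the scaling between samples. Divided by the geometric mean of the 6 other members whose mean reached 200 (CTSA, CTSL, CTSZ, LAMP1, LAMP2 and NEU1), LITAF stood at 0.341 and 0.329 in wild-type lines 1 and 7, and at 0.903 and 0.889 in knockout lines 1 and 5. This ratio cancels any factor common to a sample. Its numerator is the same LITAF values for which the gene was chosen. It therefore describes only the part of the scaling and adds no support for the difference. It differed 2.67-fold between the group means, with line-by-line ratios from 2.61 to 2.74. TBP, a reference gene that the authors' scaling appears to have included, was itself higher in the knockout, at 598 and 561 in wild-type cells and 1020 and 926 in the knockout lines.

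NEU1, the lysosomal sialidase that trims sialic acid from glycoproteins, was at 467 and 535 in wild-type lines 1 and 7 and at 434 and 407 in knockout lines 1 and 5. Both knockout values were below both wild-type values, and the wild-type lines differed from each other by more than the lowest of them differed from knockout line 1. The means were 501 ± 47.6 and 420.4 ± 19.2 (SD, n = 2), a log2 difference of -0.25 ± 0.11 (SE). CTSA encodes cathepsin A, a serine carboxypeptidase that also protects and activates NEU1 in a complex. CTSA was at 411 and 419 in the wild type and at 362 and 417 in the knockout. Knockout line 5 lay among the wild-type values and only knockout line 1 was lower, with a log2 difference between groups of -0.095 ± 0.11 (SE). The ratio of NEU1 to CTSA was 1.14 and 1.28 in the wild type against 1.20 and 0.975 in knockout lines 1 and 5, so the groups overlapped.

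GLB1, lysosomal beta-galactosidase, is the other enzyme of that complex and was named after its values were seen. It was at 391 and 370 in the wild type and at 319 and 284 in the knockout. Its knockout values were both below the wild-type values, by a log2 difference of -0.34 ± 0.12 (SE), and it did not pass the threshold (limma adjusted p = 0.12).

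LAMP1 and LAMP2, the main glycoproteins of the lysosomal membrane, differed in opposite directions by small amounts. LAMP2 was at 2273 and 2250.25 in wild-type lines 1 and 7 and at 2554 and 2522.5 in knockout lines 1 and 5. The groups did not overlap and the lines of each genotype nearly coincided, with SDs of 16.3 and 22.1 (n = 2) around means of 2262 and 2538. Its log2 difference was 0.17 ± 0.066 (SE), below the threshold of the fit. LAMP2 was past the threshold, at a difference of 0.25, when the samples were scaled on the reference genes without TBP. LAMP1 was at 1614 and 1727 in the wild type and at 1452 and 1683 in the knockout. The groups overlapped, because knockout line 5 lay between the wild-type lines, and the difference of -0.095 ± 0.087 (SE) turned to 0.012 without knockout line 1. LAMP1 and CTSA shared this pattern between the knockout clones: line 5 was above line 1 by 0.21 on the log2 scale in both.

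CTSL and CTSZ, cysteine proteases of the lysosome, were slightly higher in the knockout. CTSL, an endopeptidase, was at 270.2 and 287 in wild-type lines 1 and 7 and at 323 and 303 in knockout lines 1 and 5, a log2 difference of 0.17 ± 0.12 (SE). CTSZ, a carboxypeptidase, was at 503 and 509.9 in the wild type and at 534 and 595 in the knockout, a log2 difference of 0.15 ± 0.10 (SE). In both genes the groups did not overlap, but the lowest knockout value was only 1.06 times the highest wild-type value for CTSL and 1.05 times for CTSZ. Neither passed the threshold.

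The remaining members are known from leukocytes and had low values, and those other than LAMP3 were near or below the background limits. LAMP3, a marker of mature dendritic cells, was above the limit in every sample, at 45.9 and 51.3 in wild-type lines 1 and 7 and at 47.9 and 30.2 in knockout lines 1 and 5. Only knockout line 5 was low, and the groups overlapped. CTSW, found in T and NK cells, was at 28.2 and 34.2 in the wild type and at 16.7 and 19.8 in the knockout, above the limit in both wild-type lines and below it in both knockout lines. These values rest on 27, 40, 15 and 19 counted molecules. Its log2 difference was -0.74 ± 0.38 (SE) and that of LAMP3 was -0.34 ± 0.31 (SE). Both were below the threshold.

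CTSS and CTSG did not reach the filter. CTSS, the cathepsin that degrades the invariant chain in antigen-presenting cells, was at 16.7 and 32.5 in wild-type lines 1 and 7 and at 14.5 and 9.37 in knockout lines 1 and 5. It was above the limit only in wild-type line 7, where 38 molecules were counted. CTSG, a serine protease of neutrophil granules, was at 15.65 and 20.5 in the wild type and at 15.58 and 11.45 in the knockout, below the limit in all 4 samples. No difference in CTSG was detectable at this depth.

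The low members have to be read beside the other low genes of the panel. Between a mean of 20 and 50 there were 173 genes, of which 83.2% had a negative log2 difference, with a median of -0.43 and quartiles of -0.62 and -0.15. Among the 214 genes at or above a mean of 200 the median was 0.035. Both LAMP3 and CTSW belong to the low range, where LAMP3 lay within the quartiles and CTSW below the lower one. Among those 173 genes both knockout values were below both wild-type values in 44.5% and above them in 5.78%. The negative control probes, multiplied by each sample's factor, averaged 8.87 and 8.56 in the wild-type samples against 8.48 and 7.93 in the knockout samples. Their part in the shift of low genes was not tested.

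**Figure D2:**
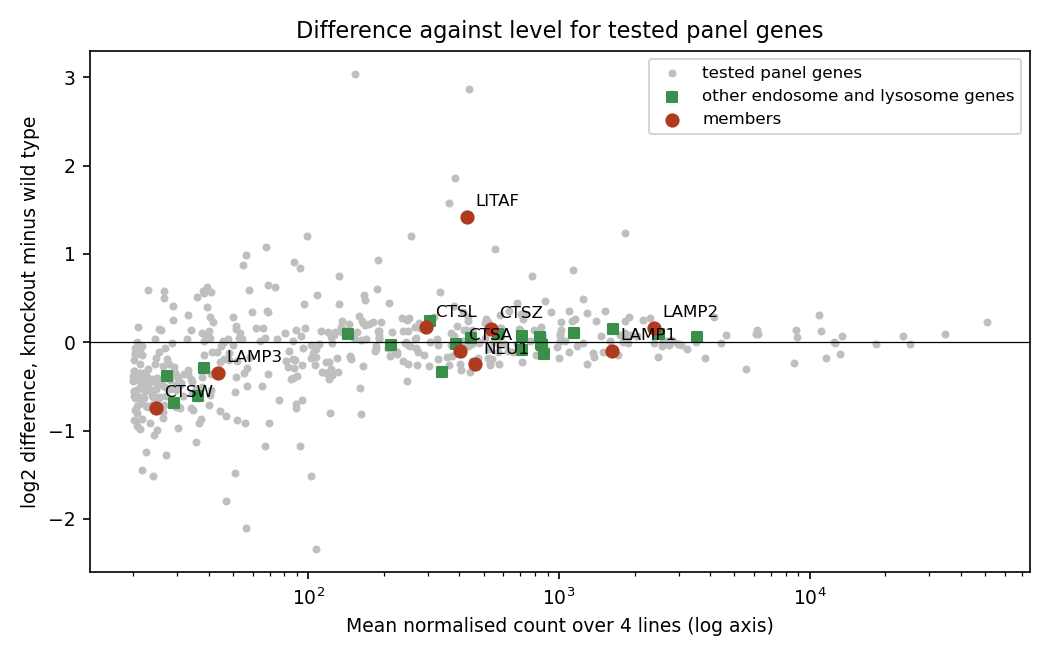
Log2 difference, knockout minus wild type, of the 514 tested genes against their mean normalised count (log axis), with members in red and other endosome and lysosome genes as green squares. LITAF lies at 1.42, the 6 other members with a mean of 200 or more lie between -0.25 and 0.17, and the low genes at the left are mostly below 0.

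Counted together, the knockout and wild-type values did not overlap in 6 of the 9 tested members, 4 with the knockout above (LITAF, LAMP2, CTSL and CTSZ) and 2 with it below (NEU1 and CTSW). Over all tested genes this held for 53.1%, with the knockout above in 22.4% and below in 30.7%, and nothing is read from the members' count. The 9 members had a median log2 difference of -0.095 against -0.043 for all tested genes. Of the 7 well-counted members, with means of at least 200, 5 did not overlap, against 54.2% of the 214 genes at that level. For spread within a genotype, the 7 members stood below the 214 genes only in the wild type. There the median absolute gap on the log2 scale was 0.028, against 0.093 over the 214 genes. Within the knockout it was 0.093 against 0.086, so the members were no closer together than other genes at that level.

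Set beside the promoter windows, the 3 members with an E-box had log2 differences of -0.25 ± 0.11 (NEU1), -0.095 ± 0.11 (CTSA) and -0.095 ± 0.087 (LAMP1; SE). The well-counted members whose windows held none were at 1.42 ± 0.105 (LITAF), 0.17 ± 0.12 (CTSL) and 0.15 ± 0.10 (CTSZ; SE). Of these genes only LITAF, which was chosen for its difference, passed the threshold, so no split by the E-box is read from them. GC content was 63.2% in the NEU1 window, 65.6% in CTSA and 76.0% in LAMP1, and 53.6% and 77.2% in the LITAF windows shown, 69.2% in CTSL and 81.2% in CTSZ. This is a description of 6 genes with no test, and the signs for CTSA and LAMP1 rest on knockout line 1. Of the 20 windows of the other endosome and lysosome genes below, that of ATP6V0D1 alone held the E-box; this proton pump subunit had a difference of 0.055 ± 0.083 (SE).

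A list of other genes of endosomes and lysosomes had 23 members on the panel and did not take in every such gene measured. Of these, 22 were tested and 0 passed the threshold with limma, 0 with edgeR on recovered counts. Only 1 (GLB1) had an unadjusted limma p under 0.05. Over all 514 tested genes 8.17% passed with limma and 7.98% with edgeR, and 102 had an unadjusted limma p under 0.05. Nothing is read from the count of 0 in a list this short. The 22 listed genes had a median log2 difference of -0.021 against -0.043 for all tested genes. Of them 10 were positive and 12 negative, with a range from -0.69 to 0.24. Among the hydrolases GLB1 was the lowest, at the -0.34 given above, and GUSB, beta-glucuronidase, was at -0.092 ± 0.12 (SE). GLA, alpha-galactosidase, was at 0.090 ± 0.068 (SE), TPP1, a tripeptidyl peptidase, at -0.036 ± 0.13, and PSAP, the precursor of the saposins, at -0.030 ± 0.084. SCARB2, an abundant protein of the lysosomal membrane, had the highest value in the list, 0.24 ± 0.12 (SE; limma adjusted p = 0.308). RAB7A, the GTPase of late endosomes, was at 0.062 ± 0.063 (SE) and NPC2, a cholesterol carrier, at 0.15 ± 0.090. The lowest values in the list belonged to TLR9, an endosomal DNA receptor, at -0.69 ± 0.36 (SE), and CD68, a macrophage protein related to LAMPs, at -0.61 ± 0.31, both in the range below a mean of 50 where most genes were negative. GUSB is also a reference gene of the scaling. Outside the list, and named after its values were seen, AP1S2 is a subunit of the AP-1 adaptor, which sorts cargo between the Golgi and endosomes. It was at 1085 and 1209 in wild-type lines 1 and 7 and at 1381 and 1497 in knockout lines 1 and 5, and it rose by 0.33 ± 0.085 (SE; limma adjusted p = 0.0401, edgeR adjusted p = 0.0388). It lost the call without wild-type line 1 (limma adjusted p = 0.127), without knockout line 5 (0.198), under limma without the trend (0.28) and with samples scaled on the positive controls (0.0885). The AP-1 subunits in the list, AP1G1 and AP1M1, were at 0.11 ± 0.079 and -0.14 ± 0.095 (SE) and did not pass. PRCP, a lysosomal carboxypeptidase also outside the list, was at 0.34 ± 0.10 (SE; limma adjusted p = 0.072).

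**Figure D3:**
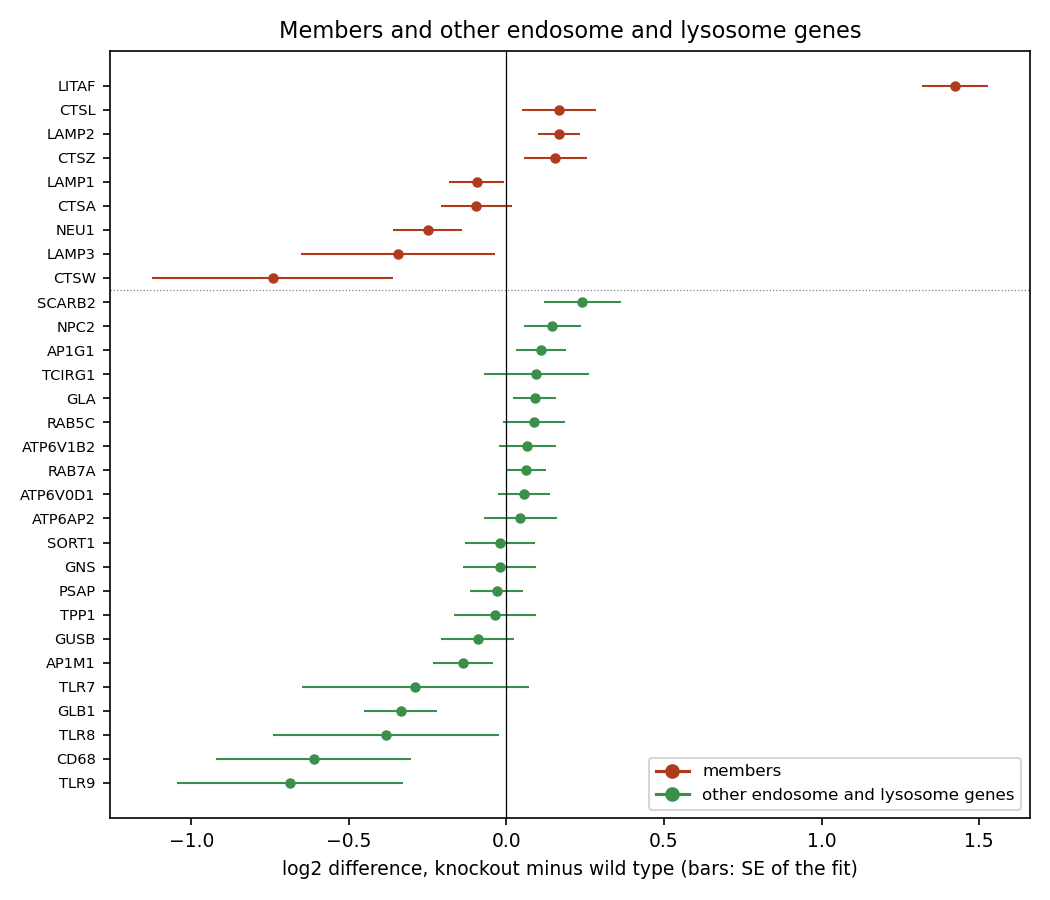
Log2 difference, knockout minus wild type, with the SE of the fit as bars, for the 9 tested members (red) and the other endosome and lysosome genes reported here (green), each sorted by value. LITAF is at 1.42 and the highest of the green genes, SCARB2, at 0.24.

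Genes tied to LITAF by name or partners were few. TNF, whose induction by lipopolysaccharide gave LITAF its name, was below the limit in all 4 samples, at 4.17 and 6.84 in wild-type and 6.68 and 9.37 in knockout cells. STAT6, a binding partner of LITAF, had a log2 difference of -0.35 ± 0.19 (SE; limma adjusted p = 0.336). MTOR, the kinase that restrains lysosome biogenesis, was at 587 and 505 in wild-type and 557.5 and 534 in knockout cells, a difference of 0.0027 ± 0.105 (SE). Of 13 tested autophagy genes 0 passed with limma or with edgeR, 3 had an unadjusted limma p under 0.05, as had 102 of all 514 tested genes, and their median was 0.081. Among genes of MHC class II processing, where CTSS and CTSL act, only HLA-DOB of the 7 listed reached the filter, at a difference of -0.28 that did not pass. HLA-DRB and HLA-DQA, which the list did not name in this form, were tested too, at -0.66 ± 0.26 and -0.75 ± 0.50 (SE; limma adjusted p = 0.188 and 0.435), and did not pass. None of the listed cystatins, the cathepsin inhibitors, was on the panel.

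The panel genes nearest to LITAF in gene order had values unlike its own. Only panel genes were looked at, 37 of them on chromosome 16, and their distances from LITAF were not taken into account. On chromosome 16 the nearest panel genes in gene order are SOCS1 and CREBBP on one side and TNFRSF17 and IL4R on the other. CREBBP, a histone acetyltransferase, was at 1035 and 963 in wild-type lines 1 and 7 and at 1014 and 1003 in knockout lines 1 and 5, with overlapping groups and a log2 difference of 0.014 ± 0.082 (SE). SOCS1 was near background, with 19.8 and 26.5 in wild-type and 16.7 and 21.9 in knockout cells. IL4R had a difference of -0.12 ± 0.18 (SE), and TNFRSF17 was under the filter. SOCS1 and TNFRSF17, being near or below the background limits, say little about the region. Whether the region around LITAF differed between the lines was not tested. For NEU1, which lies in the MHC region of chromosome 6, the nearest panel genes are DDAH2 and C2. DDAH2 had a difference of 0.035 ± 0.18 (SE), and C2 was under the filter.

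By the Euclidean distance between log2(value + 1) profiles centred on each gene's mean, over 4 samples and 340 other genes whose mean reached 50, those nearest to LITAF were MARCKS (0.301), FYN (0.307), ISG15 (0.333) and TAB2 (0.388). The median distance from LITAF was 1.42. MARCKS, a substrate of protein kinase C at the plasma membrane, was at 1216 and 983 in wild-type lines 1 and 7 and at 2617 and 2545 in knockout lines 1 and 5. TAB2, an adaptor of the kinase TAK1, was at 357 and 364 in the wild type and at 693 and 816 in the knockout. In both genes the knockout was above the wild type, and in neither were lines of a genotype as close on both sides as in LITAF. No member was among those nearest, and the distance reflects chiefly the size of the group difference.

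The genes nearest to NEU1 were NFKB1 (0.0279), CEBPB (0.103) and CSF1 (0.109), with a median distance of 0.414 over the same genes. NFKB1, a subunit of NF-kB, was at 96.0 and 110.4 in the wild type and at 90.1 and 82.2 in the knockout, with no overlap. Its log2 difference of -0.26 ± 0.19 (SE; limma adjusted p = 0.46) did not pass the threshold. CSF1, a macrophage growth factor, overlapped between groups, as knockout line 1 at 89.0 was above wild-type line 1 at 87.6.

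**Figure D4:**
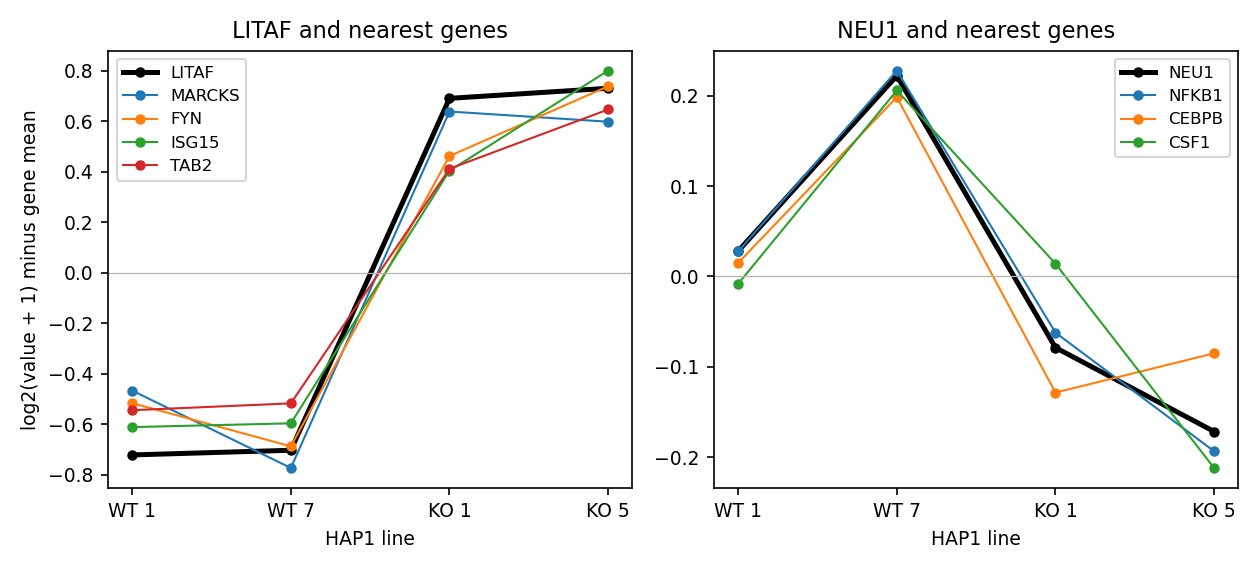
Profiles of LITAF with the nearest genes reported here (left) and NEU1 with its 3 nearest genes (right), as log2(value + 1) minus the gene's mean over the 4 lines; segments join lines only to make each gene visible and imply no order. LITAF and its nearest genes lie below 0 in both wild-type lines and above 0 in both knockout lines; the NEU1 panel has a much narrower scale.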

How the data were processed

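The table held 785 gene probes, 6 positive and 8 negative control probes in 4 samples. The deposited gene values are a normalised signal; the labels name no method, and the submitters' processing notes name R 4.1.1. In each sample 100.0% of gene values, the smallest left out, fell on whole multiples of 1 step within 0.006, so the authors multiplied probe counts by 1 factor per sample, and counts were recovered by division. In wild-type line 7, 4 values stood at a floor of 1.00, and there the step was read above that floor. The geometric mean of 10 reference genes, TBP among them, was equal in all samples within 1.04e-05 (log2), from which scaling on them is inferred.

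Knockout and wild type were compared with limma 3.58.1 in R 4.3.3 (trend) on log2(value + 1) over 514 genes with a mean of 20 or more, with Benjamini-Hochberg adjustment and a threshold of 0.05; all p-values are two-sided. Control probes were left out. Calculations were tested on simulated data. An exact permutation test of 2 against 2 cannot go below 0.333. The labels name no assay batch and no separate cultures, so p-values cover no spread beyond that between these samples. The limma p-values also draw each gene's variance toward a trend over all tested genes. Without that trend the 42 calls became 4.

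Members and lists were chosen with earlier results of these data known. Named are all members, listed genes past the threshold, the 5 genes nearest to LITAF and the 3 nearest to NEU1; other genes were named after their values were seen, and some genes are not reported here. Alternatives were 3 scalings, 2 filters, a pseudocount of 10, limma without the trend, edgeR 4.0.16 on recovered counts and leaving out each sample; scaling on the positive controls was added after the data were seen.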

Additional observations from a re-analysis of the deposited data

How the results depend on the processing

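The log2 difference of LITAF ranged from 1.39 to 1.51 over 12 alternatives, given as a description. The number of called members, 1, became 2 with the reference genes without TBP, where LAMP2 joined and 61 of 512 tested genes were called. It was 1 in the other alternatives that kept all 4 samples. That 1 is LITAF, which was chosen for this contrast, so nothing is read from the count. None of the 23 genes of the endosome and lysosome list was called in any, but AP1S2, outside it, was called in the comparison of the report and in 8 of 12 alternatives, with adjusted p from 0.00383 to 0.28. The count over all tested genes, 42, was 4 under limma without the trend, and ranged from 29, without knockout line 5, to 77, without knockout line 1; the cause was not tested for either. Of the 42, 32 were higher and 10 lower; leaving TBP out of the reference genes gave 53 and 8, and leaving out knockout line 1 turned the balance to 30 higher and 47 lower. EdgeR called 41. Without knockout line 1, CTSA turned to 0.0075 and LAMP1 to 0.012; without single samples they ranged from -0.20 to those values, and the cause was not tested. NEU1, CTSL, CTSZ, LAMP2, LAMP3 and CTSW kept their sign wherever they were tested, but not their size: LAMP3 was at -0.020 without knockout line 5 and -0.67 without knockout line 1, CTSZ at 0.077 and 0.23, and NEU1 at -0.15 without wild-type line 7. Leaving out 1 sample assumes that the lone sample of a group varies like the other group. Low counts limit CTSW, LAMP3, CTSS and CTSG. No paired analysis was possible because wild-type and knockout lines have a single number, 1, in common.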
